A study of Mus musculus with 24 samples.

Results

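The lipid droplet coat genes described here are the 5 perilipins (Plin1 to Plin5), the 3 CIDE genes (Cidea, Cideb and Cidec) and the 2 fat storage-inducing transmembrane genes (Fitm1 and Fitm2). They were chosen by name, as every non-control spot of the array whose gene name is 1 of these 10 symbols. That gave 16 probes for 10 genes, out of 46291 probes with a symbol for 27248 genes. Liver RNA of male C57Bl/6J mice, 8 weeks old and on chow since birth, was hybridised to single-colour Agilent arrays labelled with Cy3. The livers were taken at ZT16, a time counted from lights on (16 h), in the dark phase. The 4 groups were 6 mice without Ppara in the liver that were fasted for 24 h (fasted LKO), 6 such mice with free access to food (fed LKO), 5 mice with intact liver Ppara that were fasted for 24 h (fasted WT) and 5 such mice with free access to food (fed WT). The labels give neither the Cre driver nor the deleted part of Ppara. They list 24 arrays of 22 animals, since 1 fasted WT mouse and 1 fed WT mouse each had 2 arrays, whereas the series description counts every array as a mouse.

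A lipid droplet is a core of triglyceride and cholesteryl ester under a single layer of phospholipid. Perilipins sit on that layer and control how far lipases reach the core, CIDE proteins gather where droplets touch and pass lipid from the smaller to the larger one, and FIT proteins lie in the endoplasmic reticulum, where droplets bud off. During a fast the liver takes up fatty acids released by adipose tissue and stores part of them in droplets. PPARα, the product of Ppara, is a nuclear receptor activated by fatty acids that switches on genes of fatty acid oxidation and ketone production, and several coat genes are known PPARα targets in mouse liver.

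The sequences in front of 4 members that the results turn on are shown to place these genes in the genome, with the bases nearest the gene at the right. They come from RefSeq's promoter table for GRCm38.p6. Promoters of 9 of the 10 members were searched, and Cidea was left out of the search. Plin2 and Plin5 are shown up to the outer end of the annotated gene, which leaves out the last 158 and 58 of the 250 bases searched. Capitals mark AGGTCA, a nuclear receptor half-site, read on either strand. The Plin2 stretch is chr4:86670218-86670309, that of Plin3 chr17:56290512-56290761, that of Plin5 chr17:56117607-56117798 and that of Fitm2 chr2:163472630-163472879, each read from the minus strand. An annotated long non-coding RNA gene, 2310001K24Rik, also spans the Fitm2 stretch.
Plin2: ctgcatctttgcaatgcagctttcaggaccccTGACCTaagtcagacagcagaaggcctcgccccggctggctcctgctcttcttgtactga
Plin3: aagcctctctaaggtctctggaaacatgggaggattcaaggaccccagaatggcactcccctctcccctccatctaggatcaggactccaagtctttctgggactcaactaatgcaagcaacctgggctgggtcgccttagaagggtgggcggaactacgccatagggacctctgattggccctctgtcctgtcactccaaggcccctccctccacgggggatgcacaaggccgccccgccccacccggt
Plin5: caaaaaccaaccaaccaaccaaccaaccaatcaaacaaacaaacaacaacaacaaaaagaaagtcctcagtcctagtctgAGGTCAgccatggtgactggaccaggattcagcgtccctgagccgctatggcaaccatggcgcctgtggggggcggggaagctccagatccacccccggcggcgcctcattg
Fitm2: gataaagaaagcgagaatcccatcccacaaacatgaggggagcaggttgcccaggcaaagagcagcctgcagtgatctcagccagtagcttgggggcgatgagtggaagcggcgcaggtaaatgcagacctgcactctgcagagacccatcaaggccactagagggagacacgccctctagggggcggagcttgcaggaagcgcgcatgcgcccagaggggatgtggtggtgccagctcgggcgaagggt

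Plin2 and Plin5 each held 1 half-site, and these were 2 of the 11 member promoters searched (Plin5 and Cidec have 2 each in the table). In the same window of 250 bases, 14% of all 32851 promoters held AGGTCA. The paired form AGGNCANAGGNCA, known as DR1 and able to contain the half-site, was in none of the 11 and in 0.338% of all promoters. On both strands, TATAAA was found in 1 of the 11 (Cideb) and in 12.4% of all promoters, and CCAAT in 4 of the 11 (Plin2, Plin3, Plin4 and 1 of Plin5) and in 33.8%. TGACGT and CACGTG were in none of the 11, against 6.47% and 6.02% of all promoters. These matches are letters in a short window and were not tested for binding, and a letter pattern that is missing here may lie elsewhere.

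Each level below is the log2 of the scanner's processed signal minus the log2 of that array's 75th percentile, so 0 is the level of the 75th percentile and 1 unit is a doubling. Levels of different probes are not set against each other. Probe positions are in mouse build mm9, as the array files give them, and the part of the gene a probe lies in is not given there. The 75th percentile lay between 444.1 and 614.2 intensity units, and 50% to 58.8% of probes were well above background, by array. All 6 hepatocyte markers were well above background in every animal. The log2 of their summed signals, relative to the 75th percentile, was 11.54 to 11.63 in fasted LKO and 11.54 to 11.76 in fed LKO livers. It was 11.48 to 11.64 in fasted WT and 11.55 to 11.72 in fed WT livers. The brightest Ppara probe averaged 5.07 ± 0.11 in fasted LKO against 5.93 ± 0.13 in fasted WT livers, and 4.63 ± 0.37 in fed LKO against 5.29 ± 0.2 in fed WT livers (SD, n = 6 LKO and 5 WT). It was called lower in LKO in both states (adjusted p = 5.24e-05 fasted and 0.00651 fed). Whether that probe lies in the deleted part is not known from the labels. In whole liver, fewer cells of a type and less RNA per cell cannot be told apart. Replicate 3 of the fed LKO group was flagged as apart from the other fed LKO mice for Plin2 and Fitm1. These were 2 flags among 40 groups of member levels, where chance alone picks about 5%. Values without that replicate are given where they change a call.

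Fasting raised Plin2, Plin4 and Cidec in both genotypes, Plin3 with a call in LKO, and Plin5, Cideb and Fitm2 with a call in WT. Calls below are those with a Benjamini-Hochberg adjusted p under 0.05 from limma across 17215 genes. Cidea, which was well above background in no LKO animal, is described apart and left out of these counts. In LKO livers 4 of the other 9 genes rose with fasting (Plin2, Plin3, Plin4 and Cidec), where 23% of all genes tested did, and 1 fell (Fitm1), where 26.7% did. In WT livers 6 rose (Plin2, Plin4, Plin5, Cideb, Cidec and Fitm2), against 22.8% of all genes tested, and none fell, against 21.7%. The median log2 change over the 9 genes was 0.27 in LKO and 1.05 in WT livers, beside -0.04 and 0 over all genes tested.

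Between genotypes, 5 of these 9 genes were lower in fasted LKO than in fasted WT livers (Plin2, Plin5, Cidec, Fitm1 and Fitm2), against 19.9% of all genes, and 1 was higher (Plin3), against 18.1%. In the fed state 3 were lower in LKO (Plin5, Fitm1 and Fitm2), against 1.99% of all genes tested, and none was higher, against 1.99%. The medians over the 9 genes were -0.59 fasted and -0.67 fed, beside -0.01 and 0.02 over all genes. The fasting response itself differed between genotypes for Plin3, which rose more in LKO (7.71% of all genes had a higher response there), and for Fitm2, which rose in WT and had no called change in LKO (10.6% had a lower one). The comparisons share groups of animals, so these counts are not independent of each other.

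**Figure D1:**
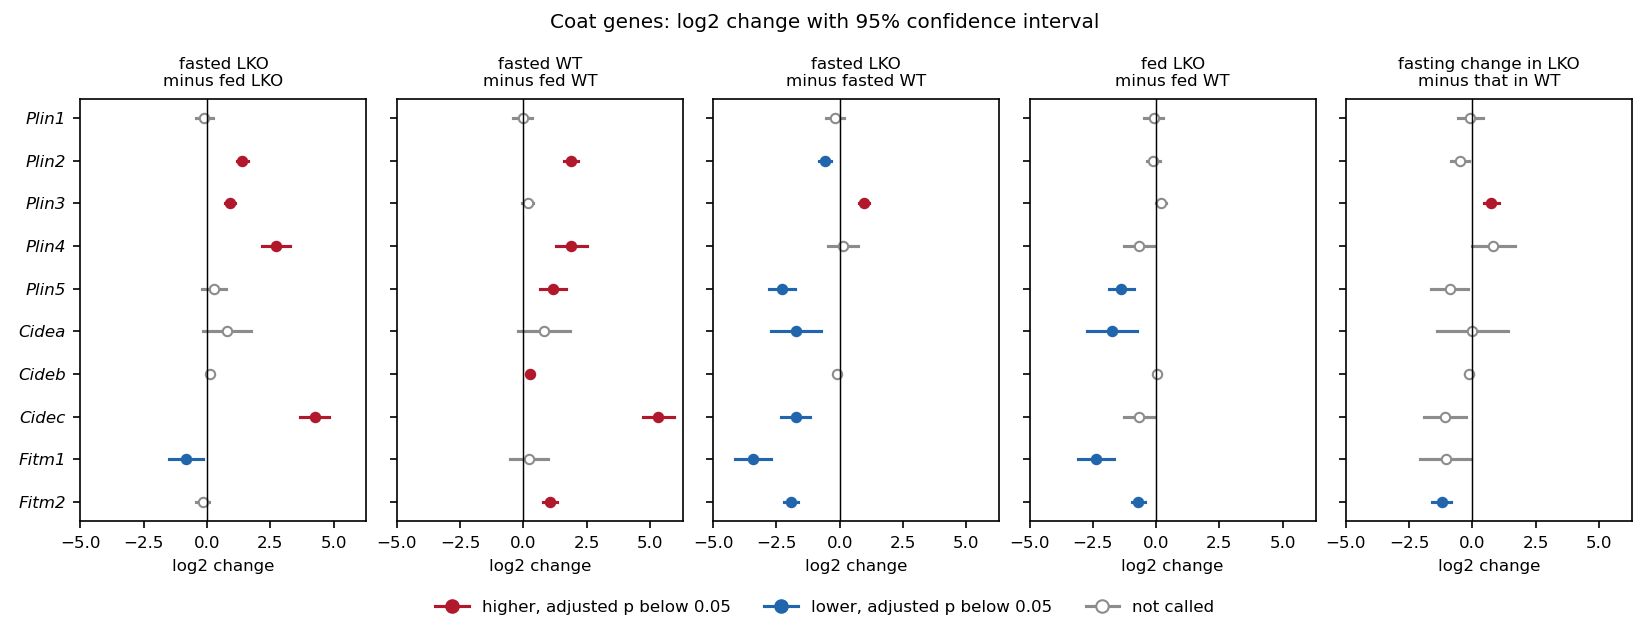
Log2 change (horizontal axis) of each coat gene with its 95% confidence interval in the 5 comparisons, filled and coloured where the adjusted p was below 0.05. Cidec has the changes farthest to the right with fasting (4.25 in LKO and 5.32 in WT), Fitm1 the change farthest to the left between genotypes (-3.42 when fasted), and Plin3 is the one gene with a higher call in fasted LKO than in fasted WT livers. The Cidea changes rest on LKO signals that were not well above background.

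Plin2 (probe at chr4:86302847-86302906), the perilipin found on droplets of most cell types and the one long used to mark hepatic fat, was high in every fasted animal. In fasted LKO livers its level had a lowest value of 6.39, a median of 6.68 and a highest of 6.92. In fed LKO livers these were 5.11, 5.24 and 5.66. The 5 fasted WT livers were at 7.08, 7.64, 7.35, 7.25 and 7.05, against 5.08, 5.35, 5.51, 5.54 and 5.5 in fed WT livers. No fasted animal reached down to any fed animal of its genotype, every fasted LKO animal lay below every fasted WT animal, and the fed groups overlapped. Fasting raised Plin2 by 1.40 ± 0.11 on the log2 scale in LKO (SE; 2.64-fold, adjusted p = 4.67e-09) and by 1.88 ± 0.12 in WT (3.68-fold, adjusted p = 5.33e-10). The level was lower in fasted LKO than in fasted WT by a log2 change of -0.59 ± 0.12 (1.5-fold, adjusted p = 0.000538), and in the fed state the difference was -0.11 (95% interval -0.35 to 0.14, adjusted p = 0.736).

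Both Plin2 probes are designed against the same transcript, and they differed in the size of the genotype effect. The second probe gave -1.01 ± 0.12 between fasted LKO and fasted WT, where the brighter one gave -0.59. Its difference of the fasting responses was -0.68 ± 0.17 and called (adjusted p = 0.0097 across all 28138 probes). The brighter probe gave -0.48 ± 0.17 and just missed the threshold (adjusted p = 0.0563 across the same probes and 0.0505 across genes). Over 30 alternatives the Plin2 difference of the fasting responses ran between -0.58 and -0.38 and was called in 8. The value of -0.58, among those called, came from the mean of both probes and not from the brighter probe alone.

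Plin3 (probe at chr17:56418429-56418488), a perilipin also known as TIP47 that shuttles between the cytosol and young droplets, was the member that stood higher in LKO. Its level in fasted LKO livers had a lowest value of 4.19, a median of 4.38 and a highest of 4.53, against 3.32, 3.48 and 3.56 in fed LKO livers. Levels in fasted WT livers were 3.32, 3.21, 3.57, 3.35 and 3.7, and fed WT livers at 3.01, 3.53, 3.08, 3.29 and 3.38. The fasted LKO animals lay above all others, and the remaining 3 groups overlapped. Fasting raised Plin3 by 0.91 ± 0.09 in LKO (1.88-fold, adjusted p = 1.08e-07), and the change in WT was 0.17 ± 0.1 (95% interval -0.04 to 0.39, adjusted p = 0.187). The response in LKO exceeded that in WT by 0.74 ± 0.14 (adjusted p = 0.000915). Fasted LKO against fasted WT gave 0.95 ± 0.1 (1.93-fold, adjusted p = 2.5e-07), and on the 3 slides taken alone this change was 0.9, 1 and 1.01.

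Plin4 (probe at chr17:56240055-56240114), a perilipin with a long repeat region that is abundant in adipose tissue, rose with fasting in both genotypes. In fasted LKO livers its level ran between 1.75 and 2.94 with a median of 2.35, against -1.08 and 0.48 with a median of -0.27 in fed LKO livers. The fasted WT animals had 2.24, 1.57, 2.68, 2.97 and 1.76, and the fed WT animals 0.57, -0.07, 0.58, 0.2 and 0.45. Within each genotype the fasted animals lay above the fed ones, and the genotypes overlapped in both states. The log2 change with fasting was 2.72 ± 0.27 in LKO (6.59-fold, adjusted p = 7.3e-08) and 1.90 ± 0.3 in WT (3.73-fold, adjusted p = 2.85e-05). No genotype difference was called, at 0.13 when fasted (95% interval -0.46 to 0.73) and -0.69 when fed (95% interval -1.28 to -0.1, adjusted p = 0.228), nor was the difference of the responses (0.82 ± 0.4, adjusted p = 0.168).

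Plin5 (probe at chr17:56251025-56251084), the perilipin of oxidative tissues that tethers droplets to mitochondria, was low in LKO whether the mice had eaten or not. Its level in fasted LKO livers had a lowest value of 3.31, a median of 3.66 and a highest of 4.28, and in fed LKO livers 2.31, 3.57 and 4.06. In fasted WT livers it was at 5.93, 6.16, 6.18, 6.36 and 5.51, against 4.84, 4.68, 5.17, 4.82 and 4.76 in fed WT livers. All LKO animals lay below all WT animals, fasted and fed WT did not overlap, and fasted and fed LKO did. Plin5 was lower in fasted LKO than in fasted WT by a log2 change of -2.28 ± 0.24 (4.86-fold, adjusted p = 3.61e-07), and in the fed state by -1.38 ± 0.24 (2.6-fold, adjusted p = 0.00146).

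Plin5 rose with fasting by 1.17 ± 0.25 in WT (2.26-fold, adjusted p = 0.000764), whereas the change in LKO was 0.27 ± 0.23 (95% interval -0.21 to 0.75, adjusted p = 0.356). The difference of the responses, -0.90 ± 0.34, was not called with all animals (adjusted p = 0.0723). It was called without fed LKO replicate 3, the lowest fed LKO animal (-1.14, adjusted p = 0.00277), without fasted LKO replicate 6 (-1.01, adjusted p = 0.0452) and without fasted WT replicate 5 (-1.03, adjusted p = 0.0466). By slide, the change with fasting in LKO was 0.95, -0.22 and 0.08, and that replicate was on the first of these slides. The second Plin5 probe, designed against the same transcript, gave the same calls for fasting and genotype, and its difference of the responses was called (-1.04 ± 0.32, adjusted p = 0.03).

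Plin1 (probe at chr7:86870028-86870087), the perilipin of adipocytes, had no call in any comparison. Of its 3 probes, 1 was well above background in 15 of 22 animals and the other two in none. The measurable probe ran between -4.77 and -4.23 in fasted LKO, -4.86 and -4.11 in fed LKO, -4.7 and -4.05 in fasted WT and -4.69 and -3.82 in fed WT livers, so the 4 groups overlapped. Its log2 changes lay between -0.18 and -0.02 in the 4 two-group comparisons, with 95% limits no farther from 0 than -0.54.

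**Figure D2:**
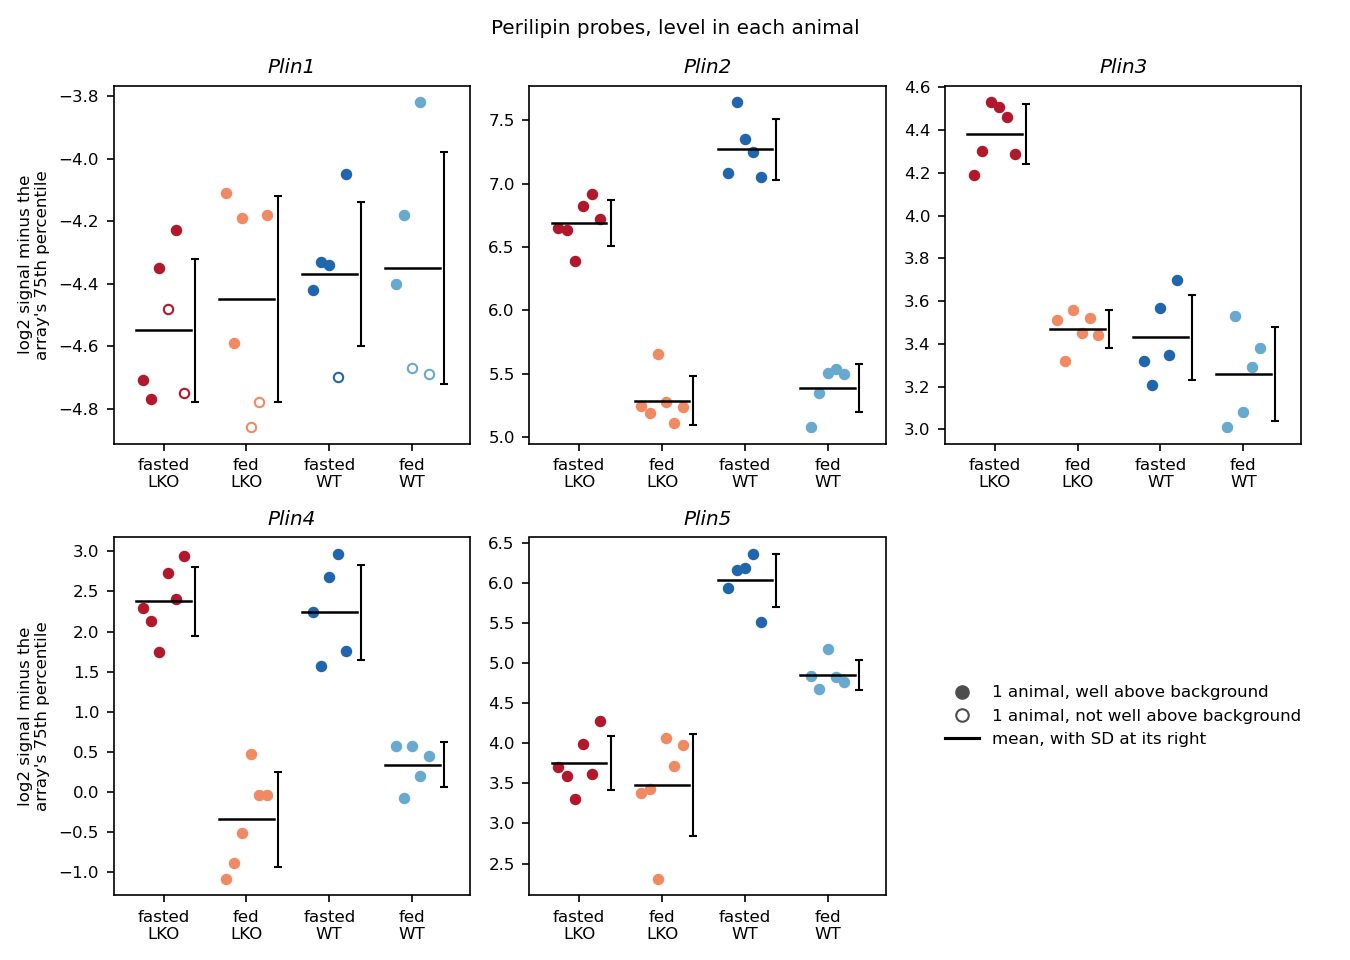
Level of each perilipin (vertical axis, log2 signal minus the array's 75th percentile, a separate scale per gene) in every animal, with the group mean as a line and its SD as a bar, and open circles for animals not well above background. Plin2 and Plin4 are high in both fasted groups, Plin3 is high in fasted LKO, and Plin5 is lower in every LKO animal (2.31 to 4.28) than in every WT animal (4.68 to 6.36).

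Cidec (probe at chr6:113374693-113374752), also called Fsp27, which enlarges droplets in adipocytes and in fatty liver, had the widest range of the CIDE genes across the groups. Its level in fasted LKO livers had a lowest value of 2.25, a median of 3.38 and a highest of 4.13, against -1.41, -1.1 and -0.42 in fed LKO livers. Fasted WT livers were at 4.96, 5.72, 5.15, 4.41 and 4.73, and fed WT livers at -0.31, -0.94, -0.43, 0.26 and -0.21. The fasted groups lay apart from the fed groups and from each other, with fasted WT on top, while fed LKO and fed WT overlapped. With fasting Cidec rose by 4.25 ± 0.27 in LKO (19.1-fold, adjusted p = 1.99e-10) and by 5.32 ± 0.29 in WT (40-fold, adjusted p = 7.32e-11).

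Cidec was lower in fasted LKO than in fasted WT by -1.74 ± 0.28 (3.35-fold, adjusted p = 5.85e-05), and the fed difference of -0.67 ± 0.28 was not called (95% interval -1.26 to -0.09, adjusted p = 0.235). Its difference of the responses was -1.07 ± 0.4 with an adjusted p of 0.0671. Leaving out fasted LKO replicate 5 (-1.25, adjusted p = 0.0253), fed LKO replicate 3 (-1.15, adjusted p = 0.0473), fasted WT replicate 4 (-1.22, adjusted p = 0.0424) or fed WT replicate 4 (-1.22, adjusted p = 0.0416) each turned it into a call. By slide, the change between fasted LKO and fasted WT was -1.68, -0.91 and -2.63.

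Cideb (probe at chr14:56372942-56373001), the CIDE gene of hepatocytes, known in mice for its part in loading very low density lipoprotein with lipid, moved little. It ran between 6.79 and 7.07 in fasted LKO, 6.79 and 6.9 in fed LKO, 6.99 and 7.19 in fasted WT and 6.63 and 6.94 in fed WT livers. Its rise with fasting in WT was small beside that of Cidec, 0.26 ± 0.06 (1.2-fold, adjusted p = 0.00121). The second Cideb probe gave 0.12 ± 0.07 there and was not called (adjusted p = 0.16). In LKO the change was 0.13 ± 0.05 (adjusted p = 0.0584), and it was called in 6 of 31 alternatives, among them quantile normalization (0.16, adjusted p = 0.0107) and without fasted LKO replicate 3 (0.16, adjusted p = 0.0136), fed WT replicate 4 (0.13, adjusted p = 0.0484) or fed WT replicate 5 (0.13, adjusted p = 0.0395). Genotype differences were -0.10 when fasted (95% interval -0.22 to 0.02) and 0.04 when fed (95% interval -0.08 to 0.16).

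Cidea, the CIDE gene of brown fat that also appears in fatty liver, was near the array's floor. Its probe was well above background in 0 of 6 fasted LKO, 0 of 6 fed LKO, 4 of 5 fasted WT and 1 of 5 fed WT livers, so it passed the filter on dim probes through the WT animals. Fasted WT livers were at -3.37, -3.57, -3.82, -4.71 and -3.25 and fed WT livers at -4.94, -5.64, -5.54, -4.51 and -2.15, the last of these being the measured one. Fasted LKO livers ran between -6.22 and -4.88 and fed LKO livers between -6.92 and -5.42. The 4 measured fasted WT livers lay above every fasted LKO value. The remaining one, at -4.71, was not well above background, and neither was any LKO liver, so their order was not measured.

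LKO livers give no measured level of Cidea, so no fold is given for fasted mice either. With LKO signals set to the array floor described below, the mean of all 5 fasted WT animals was higher by 1.29 on the log2 scale. This value is a difference of means without an error, and it depends on the processing. It is not a strict bound, since the floor is that of the whole array and not of the Cidea probe. A Plin1 signal of -4.48 in a fasted LKO liver, for example, was not well above background. The fitted log2 change was -0.8 in the authors' deposited table and ran between -1.98 and -0.45 over 31 alternatives. For the value of 1.29, each LKO array was set to its lowest signal among probes well above background. Where the Cidea signal was greater, that signal was used, and the WT mean was compared with their mean. The fit gave an adjusted p of 0.00648, from LKO values none of which was well above background. The gene entered the fit only through WT animals, so this p is no support for a difference. In the fed state 4 of 5 WT livers and all 6 LKO livers were not well above background, so no fold is given. The fitted fed difference (adjusted p = 0.0431) was lost in 20 of 31 alternatives, among them the fit without fed WT replicate 5, the measured animal (adjusted p = 0.0758). For the change with fasting in WT, all animals gave 0.81 ± 0.5 (adjusted p = 0.199), and without that same animal it was 1.41 (adjusted p = 0.00281), against fed WT livers none of which was then measured. In LKO neither state was measurable.

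Some markers of adipocytes were also lower in LKO. The log2 of the summed signals of 7 marker genes, in which the brightest genes weigh most, was 1.37 to 1.74 in fasted LKO livers. It was 2.14 to 2.52 in fasted WT, 1.43 to 1.75 in fed LKO and 1.82 to 2.04 in fed WT livers. Of the 5 markers tested, 3 were lower in LKO when fasted (Cfd, Fabp4 and Lpl), against 19.9% of all genes, and 2 when fed (Cfd and Lpl), against 1.99%. The other two were not called, with Lep at -0.22 fasted and -0.02 fed and Retn at 0.34 fasted and -0.43 fed. Cfd, which encodes adipsin, had the biggest of these changes, at -4.22 ± 0.52 fasted and -3.20 ± 0.52 fed. It was well above background in 3 of 6 fasted LKO and 2 of 6 fed LKO livers, and in every WT liver. The size of both Cfd changes therefore rests largely on LKO values not well above background. The brown fat marker Ucp1 was well above background in no animal, and the adipocyte hormone gene Adipoq in 1 of 6 fasted LKO, 0 of 6 fed LKO, 3 of 5 fasted WT and 0 of 5 fed WT livers. The part of these markers in the Cidea, Cidec, Plin5 and FIT results was not tested.

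Fitm1 (probe at chr14:56194734-56195160), the FIT gene of skeletal muscle and heart, showed the largest genotype change among the members in both states. Its level in fasted LKO livers had a lowest value of -3.5, a median of -2.09 and a highest of -1.42, and in fed LKO livers -2.93, -1.08 and -0.8. Fasted WT livers were at 1.22, 1.14, 1.55, 0.91 and 1.3, and fed WT livers at 1.02, 0.7, 0.9, 1.43 and 0.92. All LKO animals lay below all WT animals, while fasted and fed animals overlapped within each genotype. Fitm1 was lower in LKO by -3.42 ± 0.34 when fasted (10.7-fold, adjusted p = 1.78e-07) and by -2.37 ± 0.34 when fed (5.17-fold, adjusted p = 0.000184). By slide the fasted change was -3.83, -3.24 and -3.19.

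Within LKO, Fitm1 was lower after fasting by -0.82 ± 0.33 (1.77-fold, adjusted p = 0.0429), a call close to the threshold. It was lost in 10 of 31 alternatives, among them the fits without fasted LKO replicates 1 (adjusted p = 0.0753), 2 (0.0666) or 3 (0.125) and without fed LKO replicates 1 (0.097), 2 (0.0708), 4 (0.091), 5 (0.0571) or 6 (0.0909). In WT the change was 0.23 ± 0.36 (95% interval -0.52 to 0.98, adjusted p = 0.64). The difference of the responses, -1.05 ± 0.49, was not called (adjusted p = 0.144), and was without fed LKO replicate 3 (-1.36, adjusted p = 0.0134), the lowest fed LKO animal. Skeletal muscle markers gave no call among 4 tested in any comparison. Of the 6 markers listed, 4 were well above background in every fasted LKO animal and 3 in every fed LKO animal. The count was 4 in fasted WT and 4 in fed WT livers, and Ckm was well above background in no animal. The log2 of the summed signals of the 6 markers ran between -1.25 and -0.54 in fasted LKO and -0.9 and 0.07 in fasted WT livers. In fed LKO livers it ran between -1.26 and -0.76, and in fed WT livers between -1.15 and -0.81.

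Fitm2 (probe at chr2:163294776-163294835), the FIT gene expressed in most tissues and needed for droplet budding, rose with fasting in WT, with no called change in LKO. In fasted LKO livers its level had a lowest value of -1.08, a median of -0.66 and a highest of -0.55, and in fed LKO livers -0.84, -0.49 and -0.41. Fasted WT livers were at 1.2, 1.48, 1.3, 0.93 and 1.09, against 0.35, 0, 0.23, 0.44 and -0.3 in fed WT livers. All LKO animals lay below all WT animals, and fasting separated the WT groups from each other but not the LKO groups. The log2 change with fasting was 1.05 ± 0.13 in WT (2.08-fold, adjusted p = 2.31e-06) and -0.16 ± 0.12 in LKO (95% interval -0.42 to 0.09, adjusted p = 0.284). The difference of the responses was -1.22 ± 0.18 (adjusted p = 0.000114) and was called in all 30 alternatives, between -1.29 and -1.08.

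Fitm2 was lower in fasted LKO than in fasted WT by -1.92 ± 0.13 (3.78-fold, adjusted p = 4.62e-10), and in the fed state by -0.70 ± 0.13 (1.62-fold, adjusted p = 0.00212). The second Fitm2 probe gave -1.92 ± 0.15 when fasted, -0.64 ± 0.15 when fed and -1.28 ± 0.21 for the difference of the responses. Both FIT genes were therefore low in LKO in both states, and the change with fasting in WT was called for Fitm2 and not for Fitm1; the genes' responses were not tested against each other.

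**Figure D3:**
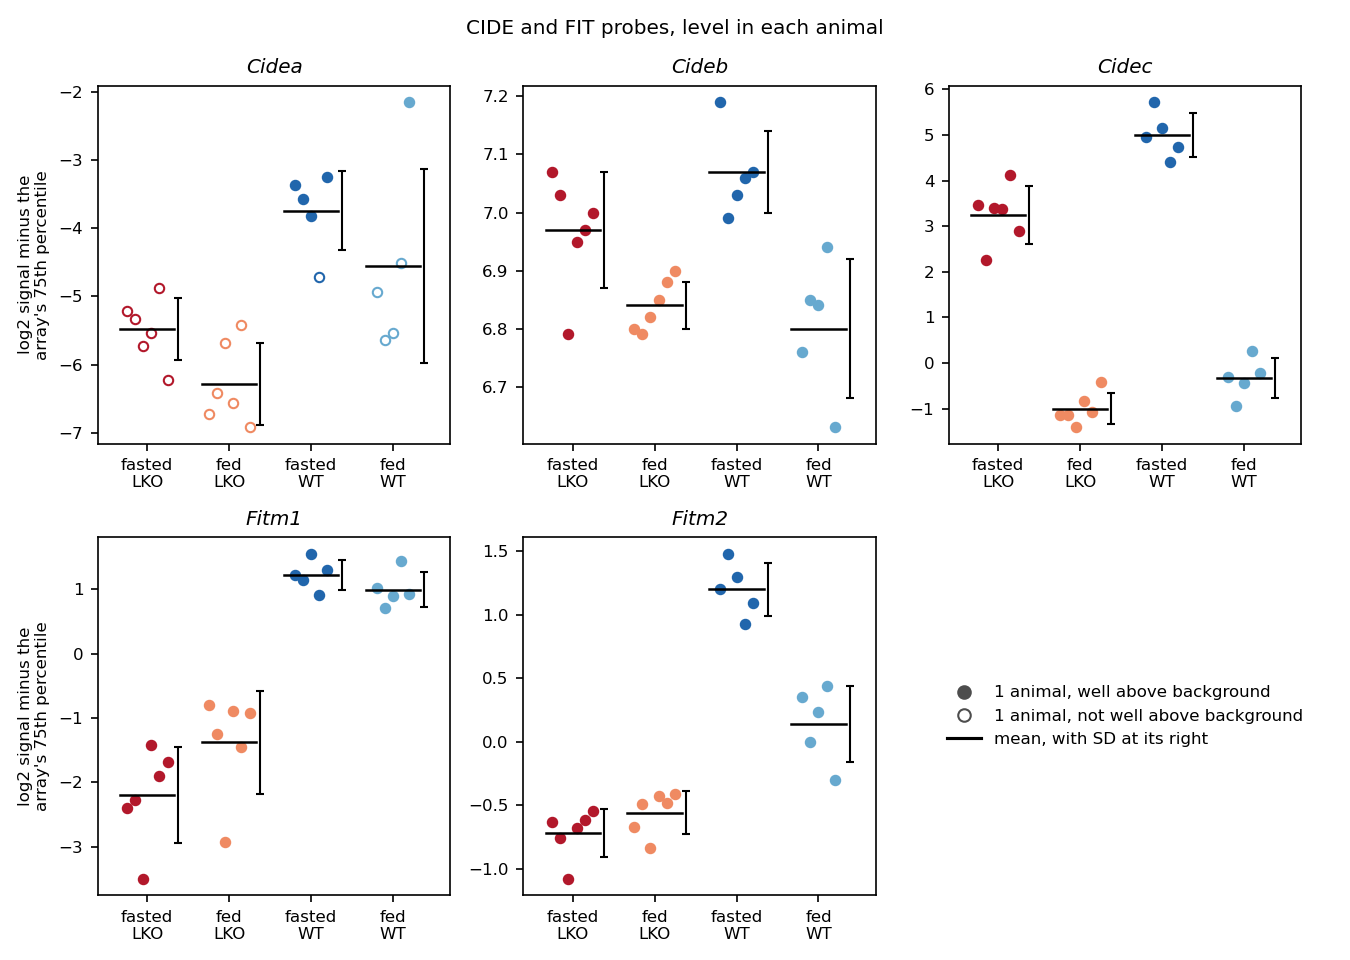
Level of each CIDE and FIT gene (vertical axis, log2 signal minus the array's 75th percentile, a separate scale per gene) in every animal, with the group mean as a line and its SD as a bar, and open circles for animals not well above background. Cidec separates fasted from fed animals, Fitm1 and Fitm2 separate LKO from WT animals, and Cidea is measured only in 4 fasted WT animals and 1 fed WT animal.

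Order of the 4 groups by level differed between members. For Plin2 it was fasted WT, fasted LKO and then both fed groups, and Cidec had the same order, with fed LKO and fed WT overlapping in both. For Plin5 and Fitm2 it was fasted WT, fed WT and then both LKO groups, which overlapped. For Fitm1 both WT groups overlapped above both LKO groups, which overlapped too. For Plin3 fasted LKO was on top of 3 groups that overlapped, and for Plin4 both fasted groups overlapped above both fed groups, which overlapped.

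Among all genes tested, those whose levels over the 22 animals followed a member most closely were named as a description. The arrays and the scaling are shared by every pair, and the 4 groups set much of each correlation. Plin5 was followed by Pxmp4, a peroxisomal membrane protein (r = 0.978), and by Fcgrt, the neonatal Fc receptor (r = 0.948). Pxmp4 was at a log2 change of -1.43 between fasted LKO and fasted WT and -0.88 between fed LKO and fed WT. Cidec was followed by Smim13 (r = 0.98), Fabp2, a fatty acid binding protein best known from the intestine (r = 0.98), and Emd, which encodes the nuclear envelope protein emerin (r = 0.976). Plin2 was followed by Josd1 (r = 0.978), Psmc6, a subunit of the proteasome (r = 0.974), and Ube4b, a ubiquitin ligase (r = 0.972).

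The droplet's other genes, 29 in a list of lipases and their regulators, enzymes of triglyceride synthesis and droplet formation, and further droplet proteins, were all tested. With fasting 7 rose and 10 fell in LKO, where 23% and 26.7% of all genes did, and 13 rose and 6 fell in WT, where 22.8% and 21.7% did. Between genotypes 4 were higher and 15 lower in fasted LKO than in fasted WT, against 18.1% and 19.9% of all genes, and in the fed state 1 was higher and 1 lower in LKO, against 1.99% each way. The median log2 change over the 29 was -0.13 with fasting in LKO and 0.16 in WT, and -0.17 fasted and 0.02 fed between genotypes. Over all genes these medians were -0.04, 0, -0.01 and 0.02. The response to fasting was higher in LKO than in WT for 2, against 7.71% of all genes, and lower for 10, against 10.6%.

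The lipolysis genes held the biggest of these changes. Pnpla2, which encodes the triglyceride lipase ATGL, rose by 0.85 ± 0.1 in LKO and by 1.83 ± 0.11 in WT, and was lower in fasted LKO than in fasted WT by -1.02 ± 0.1 (adjusted p = 1.99e-07). G0s2, the inhibitor of that lipase, fell in LKO (-0.93 ± 0.35, adjusted p = 0.0347) and rose in WT (3.59 ± 0.39, 12.1-fold, adjusted p = 3.41e-07). It was thus lower in fasted LKO than in fasted WT (-2.65 ± 0.37) but higher in fed LKO than in fed WT (1.87 ± 0.37, adjusted p = 0.00433), and its responses differed by -4.52 ± 0.53 (adjusted p = 8.17e-06). The other inhibitor, Hilpda, rose in both genotypes, by 1.23 ± 0.17 in LKO and 1.64 ± 0.19 in WT, and its genotype differences were not called.

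Abhd5, the activator of ATGL also called CGI-58, fell with fasting in both genotypes (-0.60 ± 0.12 in LKO and -0.66 ± 0.13 in WT). Lipe, hormone-sensitive lipase, was lower in fasted LKO than in fasted WT (-0.82 ± 0.11), as was Mgll, monoglyceride lipase (-1.43 ± 0.1). Pnpla3, a lipase-related droplet protein, was by far lower after fasting. In LKO its fitted change was -5.83 ± 0.76, but 2 of 6 fasted animals were measurable, so that size rests mostly on values not well above background. In WT no fasted animal was well above background, so no fold is given. With fasted WT signals set to the array floor as for Cidea, the fed WT mean was higher by 3.78 on the log2 scale, which is not a strict bound. The fit's adjusted p of 0.000152 came from fasted WT values none of which was well above background. The fed WT animals in that mean spread between -4.63 and 1.42, and 4 of 5 were well above background. In the authors' deposited table the WT means were nearer, at 5.32 fasted and 8.28 fed.

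Of the 9 synthesis and formation genes, 2 rose and 3 fell with fasting in LKO (23% and 26.7% of all genes), 3 rose and 1 fell in WT (22.8% and 21.7%), and 5 were lower in fasted LKO than in fasted WT (19.9%). Bscl2, which encodes seipin and marks sites of droplet formation, was 1 of the 5 (-0.90 ± 0.07, adjusted p = 4.82e-09), and Lpin2, a phosphatidate phosphatase, rose by 1.11 ± 0.14 in LKO and 1.23 ± 0.15 in WT. Of the 13 other droplet proteins, Hsd17b11, a droplet dehydrogenase, changed most between genotypes. It was lower in LKO by -2.33 ± 0.11 when fasted (5.04-fold, adjusted p = 1.27e-12) and by -1.05 ± 0.11 when fed (adjusted p = 1.44e-06). The sterol enzymes Nsdhl and Lss went the other way, higher in fasted LKO than in fasted WT by 1.25 ± 0.22 and 1.04 ± 0.15.

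**Figure D4:**
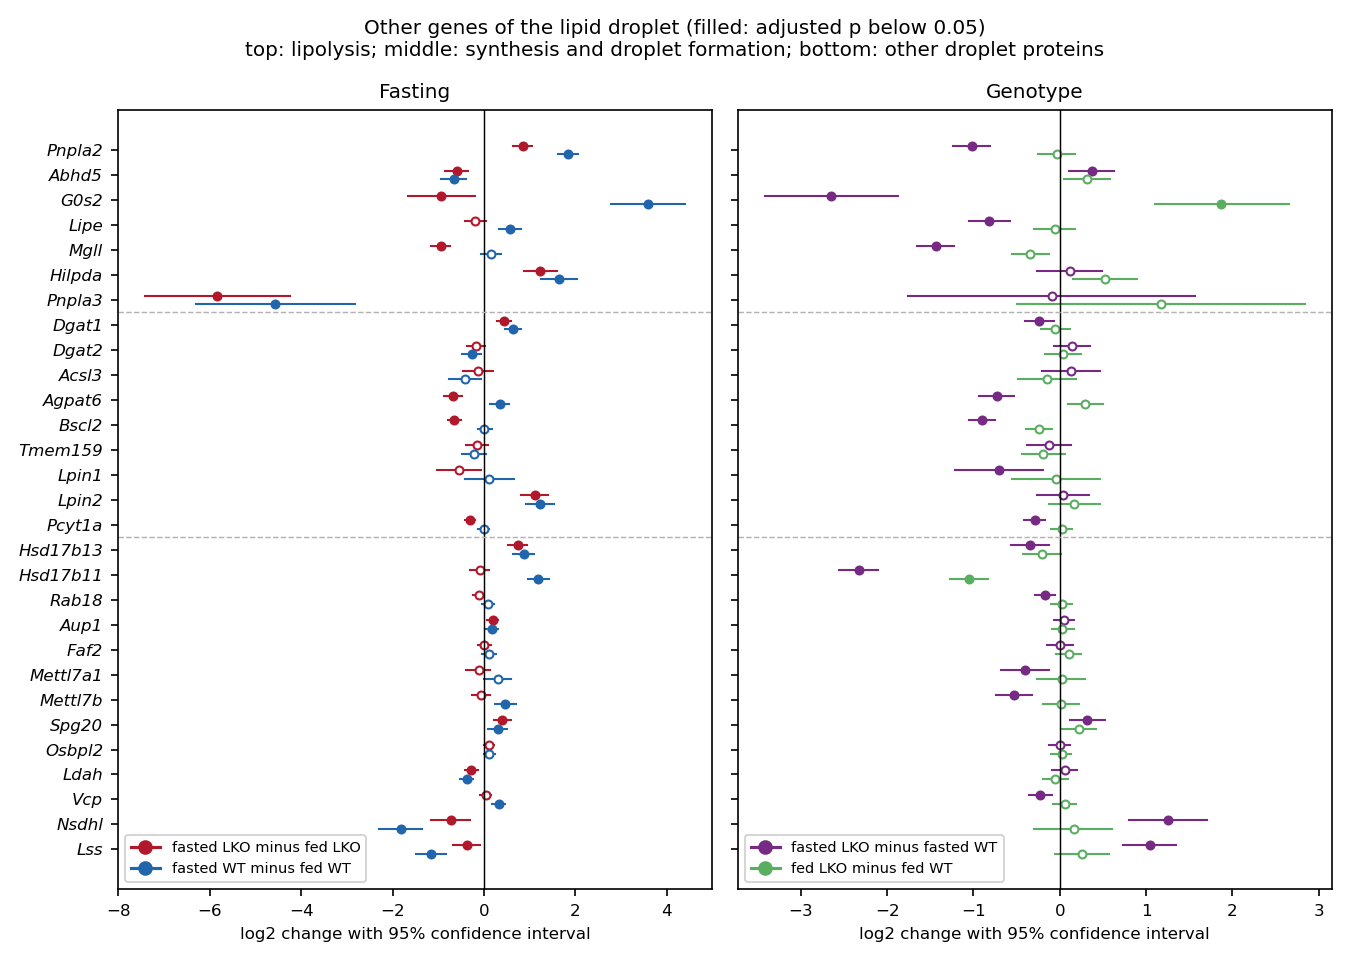
Log2 change (horizontal axis) with 95% confidence interval of 29 other droplet genes, filled where the adjusted p was below 0.05, with fasting in LKO and WT at the left and LKO against WT in fasted and fed mice at the right. G0s2 lies on opposite sides of 0 in the 2 genotypes (-0.93 in LKO and 3.59 in WT) and in the 2 states (-2.65 fasted and 1.87 fed), and most fed genotype changes lie near 0.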

How the data were processed

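Per the file headers, the deposited scanner files hold fluorescence intensity per spot from Agilent Feature Extraction (version 10.10.1.1 per the submitters' processing notes), background-subtracted and detrended, not normalized between arrays. The authors also deposited a log2 table of 31356 probes, made with limma per the submitters' processing notes (r = 0.992 to 0.994 with the scanner values).

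Control and outlier spots were left out, the 75th percentile of log2 signal was subtracted per array, and both arrays of an animal were averaged (member differences 0 to 0.58). A probe needed to be well above background in 5 of 22 animals, which kept 28138 of 46291 with a symbol and 14 of 16 member probes. Each gene was its brightest kept probe, giving 17215 genes. All 22 animals were fitted with limma 3.58.1 in R 4.3.3 (1 mean per group). Errors of log2 changes are SE. The number of arrays limits precision. Alternatives were normexp correction, quantile normalization, the deposited table, no filter, the mean of a gene's probes, slide or replicate number as a block, array a only, only the groups compared, and each animal left out. Each of 3 slides held 2 arrays of every group.

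The members and lists were chosen with earlier results of these data known. All members are named. From the 29 other droplet genes the rule names up to 3 called genes with the largest changes per comparison, and Abhd5, Lipe, Bscl2, Nsdhl and Lss were named after their values were seen. For Plin2, Cidec and Plin5 it names the 3 genes with the highest Pearson r. One gene that this rule names is not reported here. No tested value was missing for a member. Animals with the same replicate number in different groups are different mice, and their deviations correlated by -0.18 to 0.18 over 31 pairs. The labels do not say what the number stands for, and these low correlations cannot exclude a weak pairing.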

Additional observations from a re-analysis of the deposited data

Results flagged for a closer look

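Among 40 groups of member levels examined for a lone high or low animal, where chance alone picks about 5%, 2 had one, both times fed LKO replicate 3. For Plin2 that animal was at 5.66, above the other fed LKO livers at 5.11 to 5.28. For Fitm1 it was at -2.93, below the others at -1.46 to -0.8.

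The fasting response differed between genotypes by its own test for 2 members. For Plin3 the response was higher in LKO than in WT by 0.74 (adjusted p = 0.000915). For Fitm2 it was lower in LKO than in WT, at -1.22 (adjusted p = 0.000114). Both stand in the report with their values by animal.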

How the results depend on the processing

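No direction of a called member change reversed. Of 1540 member values recomputed under the alternatives, 1483 kept their side of the threshold, 27 gained a call and 30 lost one, 20 of these being Cidea in fed mice and 10 Fitm1 with fasting in LKO. The count of members whose fasting response differed between genotypes was 2, became 4 with normexp background correction and 4 with the mean of a gene's probes, and ran between 2 and 5 when 1 animal was left out. It was 5 without fed LKO replicate 3 and 4 without fasted LKO replicate 5, fasted WT replicate 5 or fed WT replicate 4. The cause was not tested. With the replicate number as a block the member counts were 5 with fasting in LKO, 6 in WT, 7 between fasted and 4 between fed genotypes (Cidea included) and 2 for the responses, as without it. In the authors' deposited table Cidea in fed mice was at -0.64 (adjusted p = 0.154). Levels near background, those of Plin1 and Cidea, limit what could be measured.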
